A study of Mus musculus with 5 samples.

Results

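The granule genes described here encode proteins that neutrophils and eosinophils store in their granules, with the cytosolic pair S100a8 and S100a9: Mpo, Prtn3, Elane, Camp, Ltf, Ngp, S100a8, S100a9, Epx and Prg2. They were chosen by name, and a probe was taken as theirs where its transcript accession maps to 1 of these symbols. All 10 genes were on the array, with 11 probes, among 21150 named genes and 55681 distinct probes. RNA was measured on 1-colour arrays in macrophages of the peritoneal cavity of mice 8 weeks old, washed out by lavage and kept in culture overnight, after which the cells that had not attached were discarded. There were 2 arrays from c-JunΔLysM mice (numbers 1 and 9) and 3 from wild-type littermates (numbers 5, 11 and 14). In c-JunΔLysM mice, floxed Jun alleles are cut by LysM-Cre, which is expressed from the Lyz2 locus and acts in macrophages and also in neutrophils. For these samples the source names, like the column header in the authors' deposited table, give the Cre line as Mx instead. All mice were on a mixed 129/C57Bl6 background with either sex allowed, and the source names number the mice, so each array was taken as 1 animal.

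Neutrophils make their granule proteins in the bone marrow, in a fixed order. Azurophil granules, filled at the promyelocyte stage, hold the peroxidase Mpo and the serine proteases Elane and Prtn3. Specific granules, filled later, hold Camp, Ltf and Ngp, while S100a8 and S100a9 pair as calprotectin in the cytosol of neutrophils and monocytes. Eosinophil granules hold the peroxidase Epx and the major basic protein Prg2. The transcription factors C/EBP and PU.1 drive many of these genes. The Jun gene encodes c-Jun, a subunit of AP-1, which binds AP-1 sites as a dimer with Fos proteins and CRE sites with ATF proteins.

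Promoters of the azurophil and S100 genes are shown because they are the stretches in which sites of AP-1, the factor that the genotype concerns, were looked for. Each is the 250 bases before the annotated start in RefSeq on GRCm38.p6, read on the gene's own strand, with matches to the motifs TTNNGNAA (C/EBP) and GAGGAA (PU.1), on either strand, in capitals.
Mpo: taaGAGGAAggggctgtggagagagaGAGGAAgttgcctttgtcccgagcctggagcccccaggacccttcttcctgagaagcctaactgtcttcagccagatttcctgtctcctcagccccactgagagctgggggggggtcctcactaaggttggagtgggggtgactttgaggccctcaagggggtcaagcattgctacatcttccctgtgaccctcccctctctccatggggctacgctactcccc
Prtn3: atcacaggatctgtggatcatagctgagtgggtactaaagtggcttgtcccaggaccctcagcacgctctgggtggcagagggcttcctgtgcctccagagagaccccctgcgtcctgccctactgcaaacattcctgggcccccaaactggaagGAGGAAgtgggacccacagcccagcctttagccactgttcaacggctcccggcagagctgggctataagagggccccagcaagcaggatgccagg
Elane: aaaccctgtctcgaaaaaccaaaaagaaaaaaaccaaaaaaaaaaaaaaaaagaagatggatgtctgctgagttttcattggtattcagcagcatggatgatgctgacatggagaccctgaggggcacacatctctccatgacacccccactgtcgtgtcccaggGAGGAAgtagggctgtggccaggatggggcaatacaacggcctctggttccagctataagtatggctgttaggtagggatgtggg
S100a8: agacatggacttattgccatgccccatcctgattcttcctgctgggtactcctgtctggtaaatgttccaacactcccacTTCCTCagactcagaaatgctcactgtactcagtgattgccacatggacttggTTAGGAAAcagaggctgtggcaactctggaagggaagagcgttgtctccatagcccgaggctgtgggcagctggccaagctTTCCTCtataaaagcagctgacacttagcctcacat
S100a9: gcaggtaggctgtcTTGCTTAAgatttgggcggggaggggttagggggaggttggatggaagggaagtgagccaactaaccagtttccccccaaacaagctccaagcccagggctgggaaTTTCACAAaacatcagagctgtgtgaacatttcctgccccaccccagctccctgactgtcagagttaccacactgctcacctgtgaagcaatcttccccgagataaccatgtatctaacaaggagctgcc
The Mpo window is chr11:87793534-87793783 (plus strand), that of Prtn3 is chr10:79879417-79879666 (plus strand) and that of Elane is chr10:79886062-79886311 (plus strand). The S100a8 window is chr3:90668821-90669070 (plus strand) and the S100a9 window is chr3:90695722-90695971 (minus strand). RefSeq promoters were at hand for 9 of the 10 genes, all but Prg2. None of the 9 held the AP-1 motif TGANTCA, which was in 6.75% of 32851 promoter windows of the same length, or the CRE motif TGACGTCA, which was in 1.55%. The C/EBP motif was in 4 of 9 (S100a8, S100a9, Ngp and Ltf), against 36.8% of all windows. The PU.1 motif was in 5 of 9 (Mpo, Prtn3, Elane, S100a8 and Ltf), against 23.3%. In Prtn3 and Elane, which are neighbours on chromosome 10, it began 95 and 85 bases before the start. A match of letters is a description and not a site of binding.

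Values below are log2 ratios of the spot signal to the 75th percentile of its array, and a difference is c-JunΔLysM minus wild-type on that scale. Between 53.0% and 60.6% of spots on an array were well above background, the scanner software's own call, and no probe was saturated. The lowest signal called well above background lay at -5.80 and -4.51 on c-JunΔLysM 1 and 9, and between -4.98 and -4.80 on the wild-type arrays. Slide 1 held c-JunΔLysM 1 and wild-type 5, and slide 2 held c-JunΔLysM 9 with wild-type 11 and 14. The sex-linked transcript Ddx3y was at 1.35 on wild-type 11 and not well above background on the other 4 arrays, so 1 wild-type animal was male by this measure. Uty, also sex-linked, was well above background on at least 2 arrays (difference -2.32), and the difference of Xist was 2.11. The sex of the other animals is therefore not settled here. All 10 macrophage markers, among them Adgre1, Csf1r and Cd68, were well above background on all 5 arrays. Jun itself, the deleted gene, was at 2.76 and 2.71 in c-JunΔLysM macrophages, against 3.21, 3.75 and 3.17 in wild-type (difference -0.64, SE 0.23, limma adjusted p = 0.391). The position of its probe within the gene is not known here, so this does not check the genotype.

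Of the 10 granule genes, 8 were well above background on at least 2 of 5 arrays and were tested, while Epx and Prg2 were not. None of the 8 passed limma's test after Benjamini-Hochberg adjustment over the 27981 genes tested, with adjusted p from 0.296 (Prtn3) to 0.979 (Ltf). The share of all genes that passed was also 0%, while 12.1% had an unadjusted p below 0.05. Among the granule genes, Mpo and Prtn3 had such a p (0.0482 and 0.0142), both lower in c-JunΔLysM macrophages, against 6.52% of all genes. They were also the 2 genes whose c-JunΔLysM arrays both lay below every wild-type array, which held for 20.2% of all genes. No granule gene had both c-JunΔLysM arrays above every wild-type array, which held for 13.3% of all genes. The difference was below 0 in 6 of 8 granule genes and in 61.4% of all genes. The 6 include Ngp, which passed the filter through wild-type arrays alone, and Ltf, at -0.04. With quantile normalization, median centring or normexp, 5 of 8 were below 0. Within slide 1, without c-JunΔLysM 9 or without wild-type 14, 4 of 8 were. The median difference was -0.39 over the 8 genes, Ngp included, and -0.09 over all genes. The median over the 8 was -1.01 without c-JunΔLysM 1, -0.75 without wild-type 11 and -0.04 without wild-type 14. In RNA of a whole dish, fewer cells of a type and less RNA per cell cannot be told apart.

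Among the azurophil genes, Mpo and Prtn3 were lower on both c-JunΔLysM arrays than on any wild-type array, without passing the adjusted test, and Elane was not. Mpo encodes myeloperoxidase, which makes hypochlorous acid. Its single probe, of transcript NM_010824, was at -4.72 and -2.39 on c-JunΔLysM 1 and 9, against 0.26, -1.97 and -1.31 on wild-type 5, 11 and 14. It was well above background on all 5 arrays, but its value on c-JunΔLysM 1 was not far above the lowest signal so called there (-5.80). Array c-JunΔLysM 1 was lowest by 2.33 and wild-type 5 was highest by 1.57, while c-JunΔLysM 9 lay just under wild-type 11, so the groups did not overlap. The mean was -3.56 ± 1.65 (SD, n = 2) in c-JunΔLysM and -1.01 ± 1.14 (SD, n = 3) in wild-type, which is 5.87-fold lower (difference -2.55, SE 0.97, limma adjusted p = 0.409). The size depended on the arrays, since the difference was -4.98 within slide 1, -0.76 within slide 2 and -1.39 without c-JunΔLysM 1. With normexp background correction it was -1.51. The authors' deposited table, which gives 1 value per group, also has -2.55 for this probe. The wild-type column there is headed with 4 array numbers, and 1 of these arrays was not analysed here. Even so, the table's differences nearly equalled those computed here from 3 wild-type arrays for 1692 of 1709 probes. Its value for Mpo is therefore no separate measurement.

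Prtn3, which encodes proteinase 3, showed the smallest p of the granule genes. It was at -0.03 and -0.20 on the c-JunΔLysM arrays, against 1.43, 1.23 and 0.52 on wild-type 5, 11 and 14. The c-JunΔLysM arrays lay close together, below the lowest wild-type array. Prtn3 was 2.26-fold lower, with means of -0.12 ± 0.12 (SD, n = 2) in c-JunΔLysM and 1.06 ± 0.48 (SD, n = 3) in wild-type (difference -1.18, SE 0.31, limma adjusted p = 0.296). Within slide 1 the difference was -1.46 and within slide 2 it was -1.08. Leaving out any 1 array gave differences between -1.45 and -0.99. The authors' deposited table has -1.18, which is no separate measurement either.

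Elane, the neutrophil elastase gene next to Prtn3, was at 1.63 and 1.67 in c-JunΔLysM macrophages, against 1.14, 1.92 and 0.92 in wild-type. The c-JunΔLysM values lay inside the wild-type range, with a difference of 0.33 (SE 0.34, limma adjusted p = 0.702), which was 0.49 within slide 1 and 0.25 within slide 2. The sign of the Elane difference was thus opposite to that of Prtn3, although no test set one gene against the other.

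**Figure D1:**
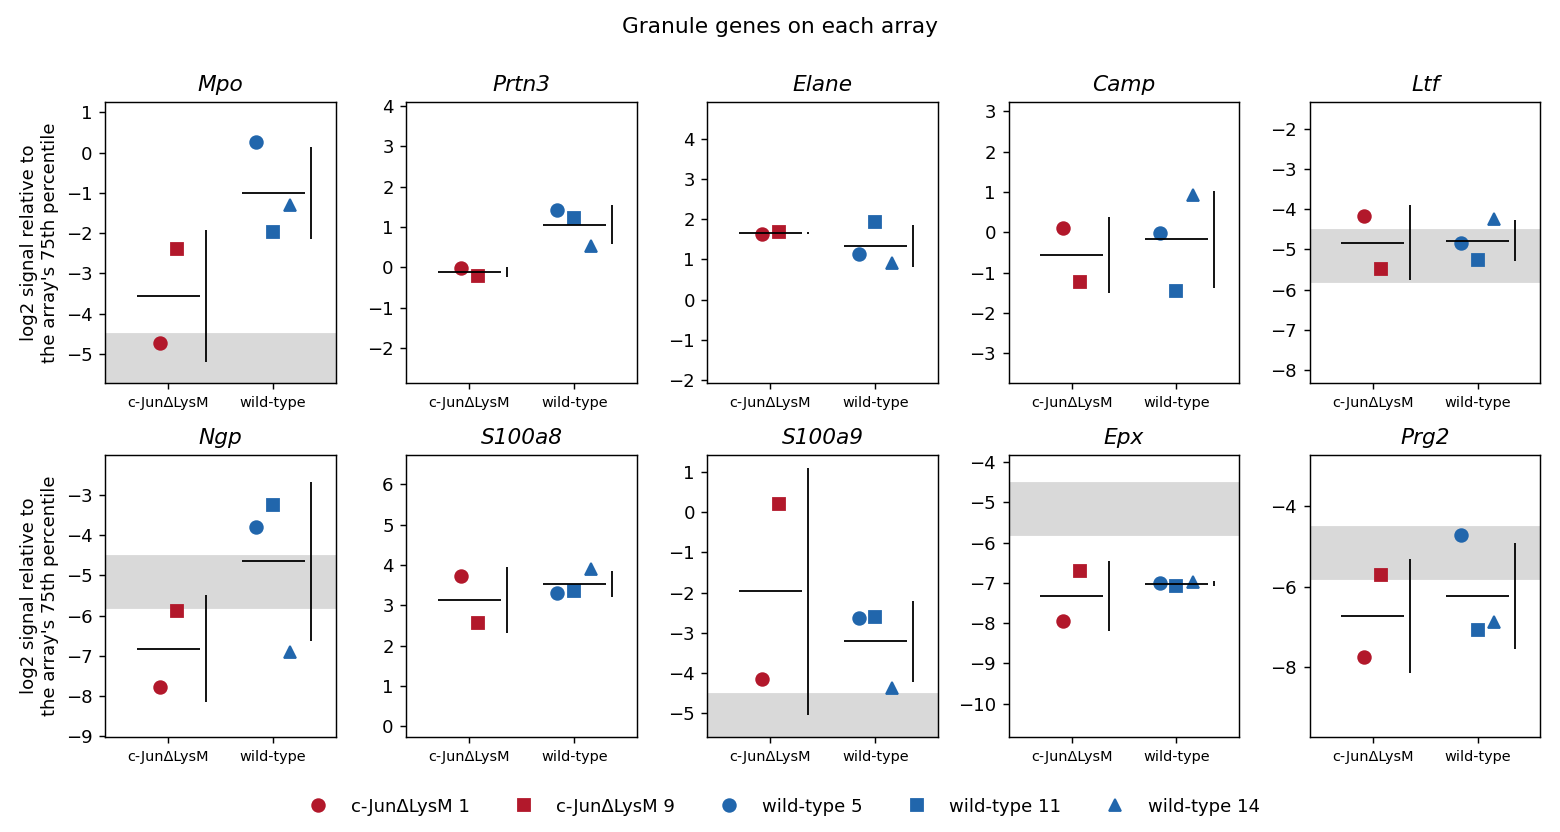
Log2 of the signal over the array's own 75th percentile (y axis, of equal span but placed at the gene's own level in each panel) of the 10 granule genes on the c-JunΔLysM arrays (red, n = 2) and the wild-type arrays (blue, n = 3). Points are arrays, circles being slide 1, horizontal lines are group means and vertical bars are SD. The grey band spans the lowest signals called well above background on the 5 arrays, from -5.80 to -4.51. Mpo and Prtn3 are the panels in which the groups do not overlap (25% of the 8 genes tested, beside 33.5% of all genes).

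The specific granule genes varied between arrays of 1 genotype more than between genotypes, or were close to background. Camp, which encodes the antimicrobial peptide cathelicidin, was at 0.11 and -1.23 on c-JunΔLysM 1 and 9, against -0.01, -1.45 and 0.94 on wild-type 5, 11 and 14. Each genotype thus held a low and a high array, and the difference was -0.38 (SE 0.82, limma adjusted p = 0.867). A second Camp probe was at -0.89 and -2.13 in c-JunΔLysM, against -0.94, -2.15 and -0.14 in wild-type. Wild-type 14 was highest and wild-type 11 lowest on both probes. The difference of the first probe was 0.12 within slide 1 and -0.97 within slide 2.

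Ltf encodes lactoferrin, an iron-binding protein. Its values were -4.17 and -5.49 on the c-JunΔLysM arrays, against -4.85, -5.26 and -4.25 on the wild-type arrays. It was well above background on c-JunΔLysM 1 and wild-type 14 alone, so most of its values sit at the level of background. The difference was -0.04 (SE 0.51, limma adjusted p = 0.979), and it was 0.31 with quantile normalization, 0.18 with median centring and 0.10 with normexp. Within slide 1 it was 0.68 and within slide 2 it was -0.73.

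Ngp encodes neutrophilic granule protein, a member of the cystatin family. It was at -7.76 and -5.88 in c-JunΔLysM macrophages, against -3.80, -3.27 and -6.91 on wild-type 5, 11 and 14. Only wild-type 5 and 11 were well above background, so Ngp entered the test through the wild-type arrays alone, which bears on its direction. With the c-JunΔLysM arrays set to the lowest signal called well above background on each, the wild-type mean was 1.41-fold higher. That mean takes in wild-type 14 at its own value, under the lowest such signal there (-4.80). The 1.41-fold is therefore no strict bound. Wild-type 14 lay inside the range of the c-JunΔLysM arrays, so the groups overlapped. The fitted difference of -2.17 (limma adjusted p = 0.531) was -3.97 within slide 1, -0.79 within slide 2 and -0.37 with normexp.

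The probes of S100a8 and S100a9, genes whose proteins work as 1 calcium-binding complex, did not follow each other across the arrays. S100a8 was at 3.72 and 2.55 on c-JunΔLysM 1 and 9, against 3.31, 3.37 and 3.91 on wild-type 5, 11 and 14. Its lowest array was c-JunΔLysM 9, and the difference was -0.39 (SE 0.42, limma adjusted p = 0.712). The single S100a9 probe was at -4.14 and 0.20 on the c-JunΔLysM arrays, against -2.64, -2.61 and -4.37 on the wild-type arrays. This probe was dimmer than that of S100a8 on every array. On wild-type 14 it lay close to the lowest signal called well above background there (-4.80), which limits the comparison of the 2 genes. Array c-JunΔLysM 9, the lowest for S100a8, was the highest for S100a9, by 2.81 above the next array. On wild-type 14 the order was turned round, with the highest S100a8 and the lowest S100a9 value of the 5 arrays. The S100a9 difference was 1.23 (SE 1.41, limma adjusted p = 0.734), and it was -0.94 without c-JunΔLysM 9 and 3.41 without c-JunΔLysM 1. Within slide 1 the differences were 0.41 for S100a8 and -1.50 for S100a9, and within slide 2 they were -1.08 and 3.69. The S100a9 probe carries the accession of 1 RefSeq transcript, NM_001281852, and other transcripts of the gene were not measured apart from it. A gap of at least 2 above the next array occurred on c-JunΔLysM 9 in 76 of 27981 genes, S100a9 among them.

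Neither eosinophil granule gene was well above background on any array. Epx, the eosinophil peroxidase gene, was at -7.95 and -6.71 in c-JunΔLysM macrophages, against -7.01, -7.09 and -6.98 in wild-type. Prg2, the gene of major basic protein, was at -7.73 and -5.72 in c-JunΔLysM, against -4.72, -7.08 and -6.88 in wild-type. These values are bounds on a low signal and were not tested. Other eosinophil genes had signal, however: of 13 listed, 11 were tested, 3 higher and 8 lower, none past the adjusted test, with a median difference of -0.41 (-0.11 without wild-type 11 and 0.11 within slide 2). The groups did not overlap in 2 of the 11 (18.2%), beside 33.5% of all genes. Il5ra, the interleukin-5 receptor gene that B-1 cells also use, was at 1.65 and 2.60 in c-JunΔLysM, against 0.43, 0.16 and 0.05 in wild-type (difference 1.91, SE 0.33, limma adjusted p = 0.224, and 0.0474 with median centring). Alox15, a lipoxygenase gene that resident peritoneal macrophages also express, was at 6.48 and 6.55 in c-JunΔLysM, against 5.76, 3.75 and 5.05 in wild-type (difference 1.66, SE 0.61, adjusted p = 0.401). Within slide 1 and slide 2 the differences were 1.22 and 2.50 for Il5ra, and 0.71 and 2.15 for Alox15. Siglecf, a surface marker of eosinophils, was at -0.58 and -0.76 in c-JunΔLysM, against 0.22, -0.42 and -1.34 in wild-type, and its groups overlapped. Siglecf was named after its values had been seen. The ribonuclease genes Ear1, Ear2, Ear10 and Rnase2a are near-identical copies whose probes cannot be told apart with certainty, and all 4 were lowest on wild-type 14.

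**Figure D2:**
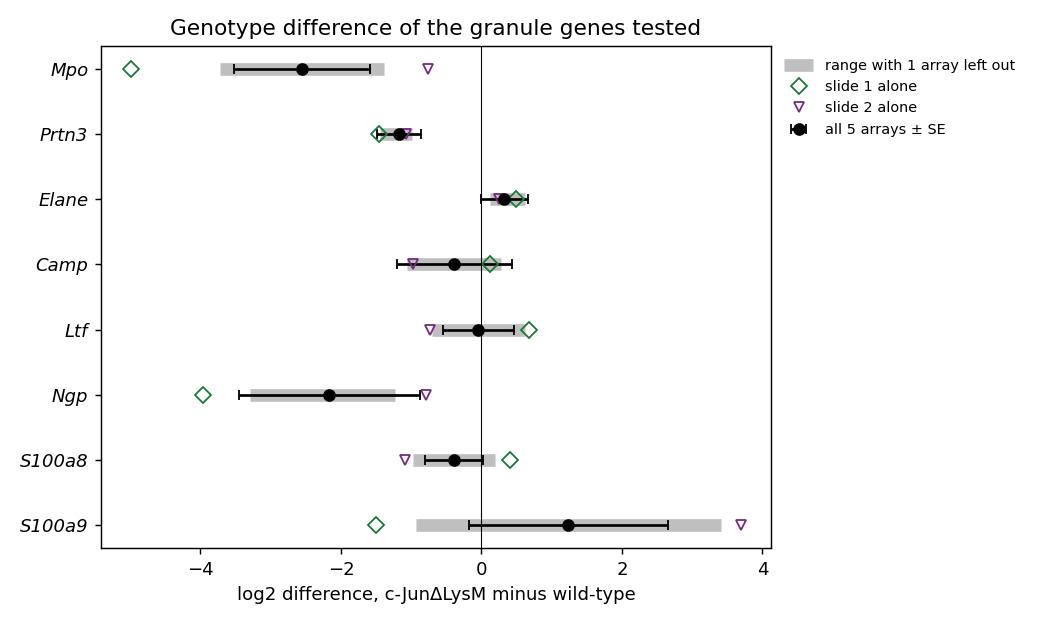
Log2 difference, c-JunΔLysM minus wild-type (x axis), of the 8 granule genes tested. Black points and whiskers are the difference over all 5 arrays with its SE, grey bars span the differences with any 1 array left out, and open symbols are the differences within slide 1 (diamonds) and slide 2 (triangles). The difference kept its sign in every such fit for Mpo, Prtn3 and Elane, and for Ngp, which entered through wild-type arrays alone, and changed it for Camp, Ltf, S100a8 and S100a9.

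The pattern of Mpo over the 5 arrays was nearest, by Euclidean distance of centred log2 values among 14676 named genes, to that of Cryba2 (1.31), Trim42 (1.42), Prcd (1.45), Slc12a3 (1.49) and Olfr998 (1.51). All 5 lay under the lowest signal called well above background on both c-JunΔLysM arrays, so this nearness is to values at background. Prtn3 stood at rank 253 (2.74) and Ngp at rank 954 (3.13), while Elane stood at rank 13131. From S100a8, the distance to Ltf was 0.55 (rank 178) and that to S100a9 was 4.68 (rank 14635). From Camp, the distance to Ltf was 1.08 (rank 138) and that to S100a8 was 1.39 (rank 648). Ltf was at background on 3 of the 5 arrays and Ngp on 3, which limits each distance to them. Camp, Ltf and S100a8 had in common that wild-type 14 and c-JunΔLysM 1 were their 2 highest arrays. The genes nearest to S100a8 were C1ra (0.16), Pilrb1 (0.17), Plpp1 (0.22), Bst1 (0.23) and the formyl peptide receptor gene Fpr1 (0.25). All patterns other than that of Mpo were picked after their values had been seen.

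Other genes of neutrophil granules and cytosol were split between higher and lower. Of 21 listed, 17 were tested, 8 of them higher and 9 lower in c-JunΔLysM macrophages, and none passed the adjusted test. Both c-JunΔLysM arrays lay above all wild-type arrays in 2 and below them in 5, which is 41.2% without overlap, beside 33.5% of all genes. The median difference was -0.06, and it was positive with quantile normalization (0.09), median centring (0.16) and normexp (0.03), and was -0.36 without c-JunΔLysM 1 and 0.08 without wild-type 5. Lcn2, the gene of the iron-siderophore binding protein lipocalin 2, was at -0.83 and -1.29 in c-JunΔLysM, against -0.40, -0.16 and 0.47 in wild-type (difference -1.03, SE 0.33, limma adjusted p = 0.351). Ctsg, the azurophil protease cathepsin G, was at -2.13 and -2.60 in c-JunΔLysM, against -1.07, -1.43 and -2.16 in wild-type, where wild-type 14 reached into the c-JunΔLysM range. Lcn2 and Ctsg were named after their values had been seen. Wfdc21 had the largest difference downwards in this list, with 0.21 and -2.33 in c-JunΔLysM macrophages, against 0.68, 2.59 and 3.02 in wild-type (difference -3.16, SE 1.05, limma adjusted p = 0.367). It was -0.48 within slide 1 and -5.13 within slide 2, and outlier spots of this probe were left out on 4 arrays. Lyz2, the lysozyme gene that carries the Cre, was at 4.46 and 8.52 in c-JunΔLysM, against 8.70, 8.76 and 9.18 in wild-type, so array 1 alone made most of its difference of -2.39 (SE 1.21, adjusted p = 0.479).

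Higher in c-JunΔLysM macrophages were Mmp8 and Stfa1. Mmp8, the neutrophil collagenase of specific granules, was at 1.45 and 0.86 in c-JunΔLysM, against -0.16, -0.56 and 0.85 in wild-type, so c-JunΔLysM 9 and wild-type 14 were nearly equal (difference 1.11, SE 0.48, adjusted p = 0.438). Stfa1, a stefin that inhibits cysteine proteases, stayed too close to background for the call on all wild-type arrays and was at least 1.63-fold higher (adjusted p = 0.263). The stefin genes are near-identical copies, so it is uncertain which of them a stefin probe reads.

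Genes of the neutrophil surface also pointed both ways. Of 17 listed, 12 were tested, 7 higher and 5 lower, with a median difference of 0.35, and none passed. That median was 0.10 without wild-type 14, 0.67 without wild-type 5 and 0.12 with normexp. Cxcr1, a chemokine receptor gene of neutrophils, also stayed too close to background for the call on all wild-type arrays and was at least 2.02-fold higher in c-JunΔLysM macrophages (limma adjusted p = 0.23). Stfa1 and Cxcr1 entered the test through the c-JunΔLysM arrays alone, where they are high, so their direction and their lack of overlap say nothing beyond that selection. With normexp the fitted differences were 0.44 for Stfa1 and 0.65 for Cxcr1, beside 2.35 and 2.53 without it. Slc2a3, a glucose transporter gene, was at -0.67 and 0.02 in c-JunΔLysM, against -1.80, -1.15 and -2.73 in wild-type (difference 1.56, SE 0.53, adjusted p = 0.369). Trem1, an amplifying receptor of neutrophils and monocytes, was at 1.08 and 0.76 in c-JunΔLysM, against 1.85, 1.39 and 2.20 in wild-type, so that both c-JunΔLysM arrays were lower (difference -0.89, SE 0.29, adjusted p = 0.357). Il1r2, the decoy receptor of interleukin-1, was well above background on 1 array of each genotype, with a difference of -0.85 (SE 0.69). Csf3r, the receptor of the neutrophil growth factor G-CSF, was at 7.09 and 7.32 in c-JunΔLysM, against 7.26, 7.16 and 7.26 in wild-type, with a difference of -0.02 (SE 0.15). Cxcr2, the other chemokine receptor of neutrophils, was well above background on wild-type 5 alone and was not tested. Csf3r and Cxcr2 were named after their values had been seen, and Itgam stands on another cell type list too, as Lyz2 does.

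**Figure D3:**
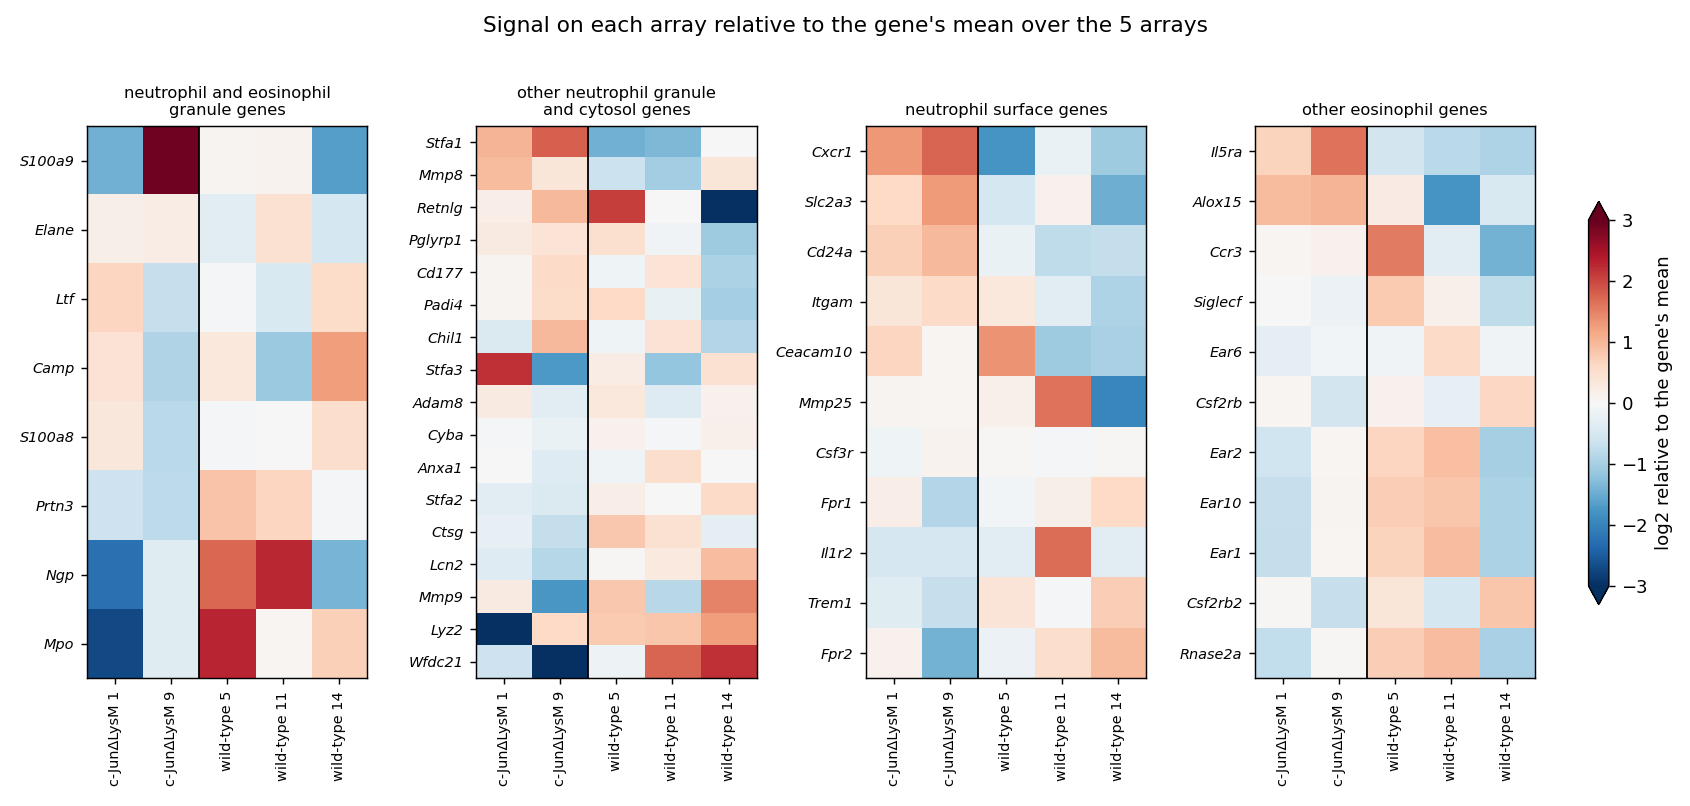
Log2 signal on each array relative to the gene's mean over the 5 arrays (colour, from blue for low to red for high, limits at -3 and 3), for the granule genes tested and tested genes of 3 further lists, with 1 neutrophil surface gene not drawn. Columns are the c-JunΔLysM arrays and then the wild-type arrays, divided by a black line, and rows run from the highest to the lowest difference. Camp and Ltf are blue on c-JunΔLysM 9 and wild-type 11, S100a9 is darkest red on c-JunΔLysM 9, and Mpo is darkest blue on c-JunΔLysM 1.

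All 10 listed transcription factors of granule genes were tested, 3 of them higher and 7 lower in c-JunΔLysM macrophages, and none passed the adjusted test. The median difference was -0.16 (0.06 with median centring, -0.08 without wild-type 11 and -0.30 without c-JunΔLysM 9). Cebpb, which encodes the C/EBPβ that acts in emergency granulopoiesis and in macrophages, was at 6.07 and 5.96 in c-JunΔLysM, against 6.69, 6.30 and 6.88 in wild-type (difference -0.61, SE 0.22, limma adjusted p = 0.393). Spi1, the gene of PU.1, was at 1.60 and 1.34 in c-JunΔLysM, against 1.93, 1.85 and 2.10 in wild-type (difference -0.49, SE 0.17, adjusted p = 0.374). The differences were -0.62 within slide 1 and -0.63 within slide 2 for Cebpb, and -0.33 and -0.63 for Spi1. Both c-JunΔLysM arrays lay below all wild-type arrays in Cebpb and Spi1, and in 3 of the 10 factors in all, beside 20.2% of all genes. Cebpe, which drives the specific granule genes, was at -0.21 and -0.65 in c-JunΔLysM, inside the wild-type values of 0.76, -0.56 and -1.60, and was named after its values had been seen.

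Of the 9 genes listed as receptors of granule proteins, 8 were tested, 4 higher and 4 lower. Tlr4, a receptor of S100a8 and S100a9, was at 2.41 and 1.69 in c-JunΔLysM, against 2.59, 2.70 and 3.01 in wild-type (difference -0.71, SE 0.28, limma adjusted p = 0.416). Ifngr1 was on the list too, although it encodes a chain of the interferon-gamma receptor and not a receptor of a granule protein. Its values were 4.84 and 4.75 in c-JunΔLysM, against 5.43, 5.43 and 5.37 in wild-type (difference -0.61, SE 0.13, adjusted p = 0.249). Of the protease inhibitors, 5 of 9 were tested, 1 higher and 4 lower. Serpinb1a, an inhibitor of neutrophil elastase, cathepsin G and proteinase 3, was at 3.77 and 4.10 in c-JunΔLysM, against 2.98, 2.52 and 1.94 in wild-type. It was 1 of the genes higher on both c-JunΔLysM arrays than on every wild-type array (difference 1.46, SE 0.35, adjusted p = 0.274). None of the receptors and inhibitors passed the adjusted test. Within slide 1 and slide 2 the differences were -0.18 and -1.16 for Tlr4, -0.59 and -0.65 for Ifngr1, and 0.79 and 1.87 for Serpinb1a.

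The S100 family beside S100a8 and S100a9 had 9 of 12 genes tested, 4 higher and 5 lower, with a median difference of -0.005 (0.22 with median centring). S100a5 was at -2.47 and -2.08 in c-JunΔLysM, against -2.92, -3.24 and -3.24 in wild-type (difference 0.86, SE 0.20, limma adjusted p = 0.273), and it was the 1 gene of these 9 without overlap (11.1%), beside 33.5% of all genes. Of the chromosomal neighbours and paralogs of the granule genes, 6 of 9 were tested, 2 higher and 4 lower. Cfd, the complement factor D gene beside Elane, was not well above background on either c-JunΔLysM array and was at -6.90 and -6.83 there, against -5.70, -4.41 and -3.70 in wild-type. With the c-JunΔLysM arrays set to the lowest signal called well above background on each, the wild-type mean was 1.47-fold higher. Wild-type 5 was itself under the lowest such signal there (-4.84), so this is no strict bound. The fitted difference of Cfd was -2.26 (adjusted p = 0.3), and -0.39 with normexp. Cfd entered the test through wild-type arrays alone, which fixed that direction. Lpo, the lactoperoxidase gene beside Mpo, was at -2.55 and -2.43 in c-JunΔLysM, against -2.15, -1.95 and -2.45 in wild-type, and its groups overlapped. Lpo was named after its values had been seen. The difference of Gzmm, a granzyme gene near Cfd, was -0.15 (SE 0.13) and was 0.07 with median centring.

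Markers of other cells were read beside the granule genes. All 10 B cell markers were higher on both c-JunΔLysM arrays than on every wild-type array, which held for 13.3% of all genes. Their median difference was 2.51, and none passed the adjusted test. The summed level of the 10, on the linear scale of the array's 75th percentile, was 274 and 399 in c-JunΔLysM, against 82.2, 62.7 and 41.1 in wild-type. Erythroid markers summed to 10.8 and 23.0 in c-JunΔLysM, against 1.52, 1.09 and 0.668 in wild-type, while Alas2 stayed at background level on all 5 arrays. The globin genes were the 5 higher ones of the 7 tested. The other 2, Slc4a1 and Car1, had differences of -0.46 and -0.06. These 2 were lower on both c-JunΔLysM arrays than on every wild-type array, as were 20.2% of all genes. Only 3 of the 7 had a probe well above background on all 5 arrays. The median difference of the 7 was 4.14, and 1.68 with normexp, so its size depends on the treatment of background. The mesothelial and stromal list summed to 2.17 and 3.41 in c-JunΔLysM, against 3.71, 9.23 and 6.45 in wild-type. Its 8 tested genes all had a difference below 0, beside 61.4% of all genes. Of the monocyte markers, 7 of 10 were tested, 3 higher and 4 lower. Of the mast cell markers, 8 of 10 were tested, all 8 higher by the mean and none without overlap, among them Cpa3 at 5.06 and 5.21 in c-JunΔLysM, against 5.35, 4.42 and 3.78 in wild-type. The direction of the mast cell markers depended on the slide. Within slide 1 all 8 were lower (median -0.28), and within slide 2 all 8 were higher (median 0.88). The part of these cells in the values of the granule genes was not tested.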

How the data were processed

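The 5 arrays of peritoneal macrophage RNA were all used. The deposited scanner files give each spot's intensity from Feature Extraction 11.5.1.1, background-subtracted within the array with no scaling between arrays, per the file headers, and other values (flags) used here for filtering. A further deposited table has log2 values as 1 mean per group, shifted to the 75th percentile per its name, with the baseline of each probe unknown (column medians 1.19 for c-JunΔLysM and 0.54 for wild-type). Its column differences lay within 0.001 of those computed here for 1692 of 1709 probes.

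Log2 signal minus each array's log2 75th percentile over 59305 non-control spots was the value used. Outlier spots were left out, and a gene was its brightest probe among those well above background on at least 2 arrays. Symbols came from transcript accessions through RefSeq (GRCm38.p6) for 28020 probes, 27661 staying unnamed; the array design is annotated on mm9, so coordinates are given only for RefSeq promoters. The genotypes were compared in limma 3.58.1 (R 4.3.3), 2-sided, with no covariate, Benjamini-Hochberg adjustment and a threshold of 0.05, after a check on simulated data. Exact permutation of 3 against 2 arrays cannot give p below 0.1 and was not run. P-values set the genotype difference against the spread between arrays within a genotype, and the number of arrays limits the precision.

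The granule genes and lists were chosen with earlier results of these data known. Besides the granule genes, Jun and Lyz2, up to 2 genes higher and 2 lower per list with the largest difference among those without overlap were named. Alternatives were other scalings, normexp on the median spot signal (the mean is not in the files) with offset 50, other filters, flagged spots kept, the mean over probes, array weights, slide, the deposited table and leaving out each array.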

Additional observations from a re-analysis of the deposited data

How the results depend on the processing

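Of 128 alternative values of the 8 granule genes tested, 115 kept the direction and 13 did not, and none passed the adjusted threshold (adjusted p from 0.169 to 0.999). Part of the 115 could not differ. With dim probes or flagged spots kept, each gene had its main value again, as did genes of 1 probe with the mean over probes. Values of the deposited table are no separate measurement either. The count is therefore no measure of how firm a direction is. Mpo, Prtn3 and Elane kept their direction throughout, as did Ngp, whose direction is tied to its passing the filter through wild-type arrays alone. Mpo lay between -4.98 and -0.76 and Prtn3 between -1.46 and -0.96. Slide 1 alone, which has no test, gave the opposite sign for S100a8 (0.41), S100a9 (-1.50), Camp (0.12) and Ltf (0.68), and Ltf was also at 0.31 with quantile normalization, 0.18 with median centring and 0.10 with normexp. With 1 array left out the differences ran from -0.97 to 0.19 for S100a8, from -0.94 to 3.41 for S100a9, from -1.05 to 0.29 for Camp and from -0.70 to 0.62 for Ltf. The median over the granule genes was -0.78 within slide 2 and ran from -1.01 to -0.040 with 1 array left out. Median centring, which moved the median difference of all genes from -0.09 to 0.13, let 233 genes of the whole array pass, and array weights let 1 pass; every other alternative with a test gave 0, with 1700 to 4500 genes at an unadjusted p below 0.05. The cause was not tested. The deposited table holds Mpo and Prtn3 alone of the granule genes, so no median was taken from it. Slide 1 holds 1 array per genotype, and with 1 c-JunΔLysM array left out or within slide 2 the lone array is assumed to vary like the wild-type arrays. No paired analysis was possible because the title numbers of the genotypes (1 and 9, against 5, 11 and 14) have none in common. Signal over background limits Ltf, Ngp, Epx and Prg2, S100a9 on wild-type 14 and Mpo on c-JunΔLysM 1.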
